A study of Rattus norvegicus with 8 samples.

Results

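Kidney allografts from rats given prednisolone were compared with allografts that had a small donor-recipient weight difference, at the level of every gene on the array. The samples were the 2 prednisolone arrays and the 2 low-difference arrays, 4 of the 8 arrays of the series, grouped by their labels. All 4 came from male inbred rats of 120 to 250 g, with Dark Agouti kidneys (RT1a) placed orthotopically into Lewis recipients (RT1l), which are mismatched at the major histocompatibility complex (MHC) and had lost both of their own kidneys. Grafts were kept in cold storage for 25 min at 4 °C and collected 24 h after transplantation. Low-difference grafts came from donors 0 to 20% lighter than their recipients, which were given no drug. Prednisolone grafts came from donors 20 to 50% lighter, and a single intravenous dose of 15 mg/kg prednisolone followed directly after surgery. The untreated group with the same 20 to 50% weight difference had 2 arrays. So did the group given 500 µg of an antibody against the interleukin-6 receptor (anti-IL6R). Levels of both groups are cited as reference, and their replicates also enter the estimate of spread behind each SE and p-value. No group with a small weight difference was treated, so the contrast changes both the weight difference and the drug. It asks what still differed from a graft of similar weight once the steroid had been given. The series calls its replicates biological, and p-values below rest on the spread between replicate arrays, pooled over all 4 groups.

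Prednisolone is a synthetic glucocorticoid. It binds the glucocorticoid receptor, a transcription factor that switches on target genes such as Fkbp5 and Tsc22d3 and represses genes driven by the inflammatory factors NF-kB and AP-1, and it is a standard drug against rejection of transplanted kidneys. An allograft at this stage carries the effects of ischaemia and reperfusion in its tubules as well as the first wave of host leukocytes, whose interferons induce a set of antiviral and antigen-presenting genes in the graft.

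RNA was measured on 1-colour arrays, and every level below is a log2 signal relative to the 75th percentile of its own array, so that 0 is the level of a gene at that percentile and 1 unit is a doubling. Levels of different genes are not compared with each other. Kidney identity was clear on all 4 arrays: the thick ascending limb gene Umod lay at 7.64 and 8.68 on the prednisolone arrays and 9.13 and 8.69 on the low-difference arrays, and the podocyte genes Nphs1 and Podxl were well above background throughout. The 2 groups lay on different slides. Slide 1 held the untreated arrays, low-difference and high-difference, and slide 2 the anti-IL6R and prednisolone arrays, so slide and group cannot be told apart in this contrast. The prednisolone arrays differed from each other more than any other pair of replicates. Their median SD between replicates was 0.307 per gene, against 0.176 for the low-difference pair and 0.153 for the anti-IL6R pair. Across the tested genes they correlated at r = 0.957, below the 0.978 between prednisolone 1 and low-difference 2 and the 0.976 between prednisolone 2 and low-difference 1 (genes are not independent replicates). Prednisolone 2 also had the lowest share of spots well above background, 64.5%, against 70.2% on prednisolone 1 and 71.7% and 72.1% on the low-difference arrays. The control transcripts added to each labelling reaction lay, at their median level, at 1.76 and 2.80 on the prednisolone arrays and at 2.61 and 2.19 on the low-difference arrays. With 2 arrays a group, precision is limited by how few there are, and an exact permutation test of a single gene could not go below p = 0.33.

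No gene passed the threshold. Of 24463 genes tested with limma, 0 had an adjusted p under 0.05 (the called share was 0.0%), and 1471 genes, or 6.01%, had an unadjusted p under 0.05. Of these, 572 (2.34%) were higher and 899 (3.67%) were lower in the prednisolone grafts. That split depended on scaling: it was 745 higher and 765 lower after quantile normalization. Over all genes the difference was above 0 for 47.5% and below 0 for 52.5%. Both prednisolone arrays lay above both low-difference arrays for 14.8% of genes and below both for 16.8%, and these shares are the background against which the counts of each gene group are read below. For another 14.3% of genes prednisolone 1 lay above both low-difference arrays while prednisolone 2 lay below both, and for 13.1% the order was the opposite. In all, the groups did not overlap for 31.6% of genes. The count of calls hung on the prednisolone pair. Without prednisolone 1 limma called 151 genes, 56 higher and 95 lower, and without prednisolone 2 it called 32 genes, 12 higher and 20 lower. At an unadjusted p under 0.05 the count was 2239 without prednisolone 1, 5091 without prednisolone 2 and 843 without low-difference 1. In these fits the single remaining array is assumed to vary as replicates of the other groups do. Genes are named by a rule given with the processing. The exceptions were Usp18, Mx1, Mx2, Ifit1, Oasl2, Isg20, Rsad2, Trim21, Hspa5, Hspb8, Creld2, Dnajc3, C1r, C3 and C5, chosen after their values were seen. No named gene passed when all arrays were used, and words such as higher and lower describe the position of the arrays, not a call.

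**Figure D1:**
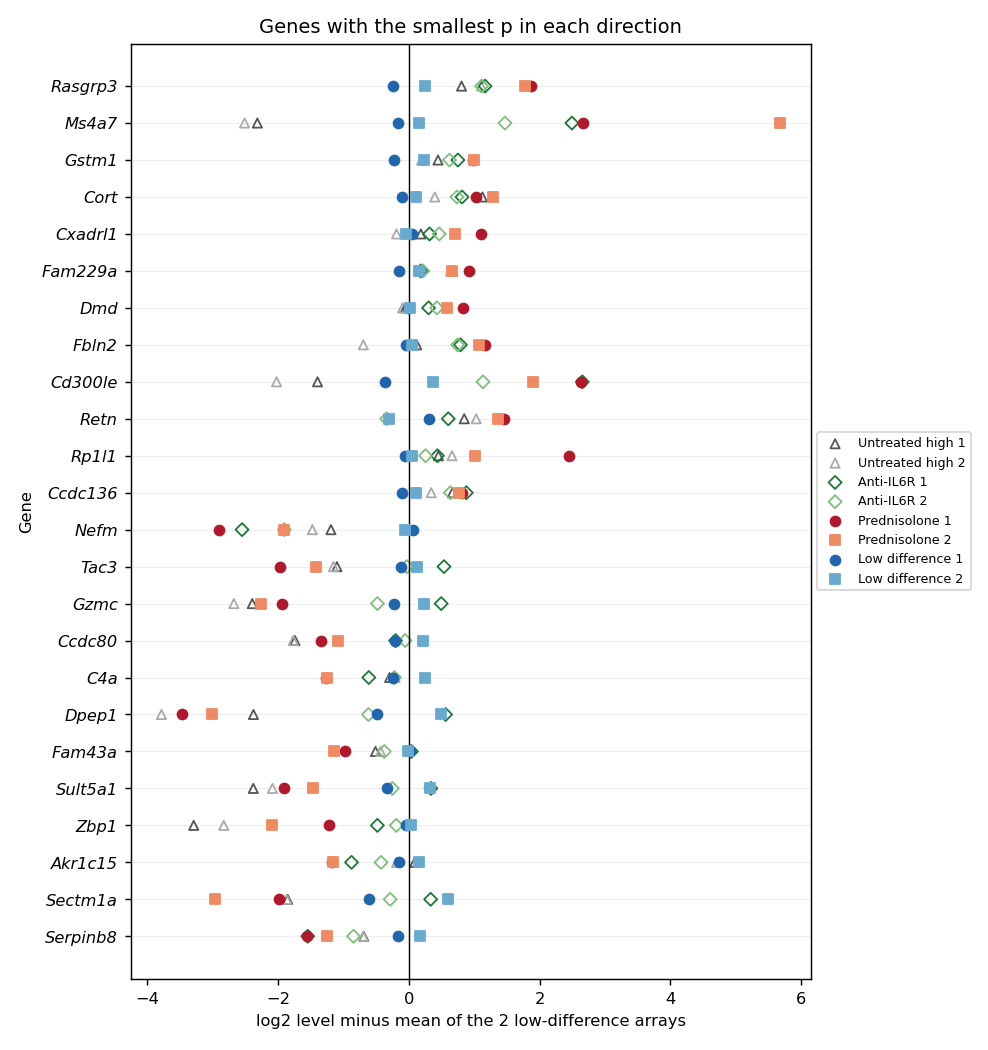
The log2 level of 24 genes on all 8 arrays, minus the mean of the 2 low-difference arrays, for the 12 genes each way named for the smallest p among genes whose groups did not overlap. Filled symbols are the prednisolone and low-difference arrays and open symbols the reference groups. For Dpep1, Gzmc, Ccdc80 and Sectm1a the anti-IL6R arrays, on the same slide as the prednisolone arrays, sit nearer to the low-difference arrays than the prednisolone arrays do. For Ms4a7, Cd300le, Gstm1, Fbln2, Dmd and Cxadrl1 all prednisolone and anti-IL6R arrays lie above all arrays of the other slide. For Nefm, Akr1c15 and Serpinb8 all of them lie below all arrays of that slide.

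Of the 12 genes named for the smallest p that lay higher after prednisolone, all well above background on the 4 arrays, the macrophage surface protein gene Ms4a7 had the widest gap. Its level was -1.55 and 1.46 on the prednisolone arrays and -4.38 and -4.06 on the low-difference arrays, a difference of 4.17 ± 0.91 (SE, adjusted p = 0.573). Both prednisolone arrays were high, prednisolone 2 far more so, and without prednisolone 1 the difference was 5.68. The anti-IL6R arrays, on the same slide, read -1.72 and -2.75. On slide 1 the untreated high-difference arrays read -6.53 and -6.73, not well above background. All arrays of slide 2 thus lay above all of slide 1 for this gene. The second probe of Ms4a7 gave a smaller difference, 1.5. Ms4a7 was an exception among the 27 monocyte, macrophage and dendritic cell genes tested. Only 1 of them, Ms4a7, lay above both low-difference arrays on both prednisolone arrays (3.70%, against 14.8% of all genes). Of the 27, 25 were higher on prednisolone 1 than on prednisolone 2. Cd300le, a myeloid receptor of the CD300 family, lay at -2.87 and -3.61 against -5.88 and -5.14, a difference of 2.27 ± 0.57 (SE, adjusted p = 0.671). Its anti-IL6R levels of -2.86 and -4.38 spanned those of the prednisolone arrays. Rasgrp3, which encodes an exchange factor that activates Ras and Rap1, had the smallest p in this direction, at -2.84 and -2.94 against -4.96 and -4.47. The groups were well separated, by 1.82 ± 0.23 (SE, adjusted p = 0.33), and the 4 reference arrays lay between them. Gstm1, a glutathione S-transferase that detoxifies electrophiles, lay at 3.14 and 3.16 against 1.94 and 2.39. The difference of 0.98 ± 0.22 (SE, adjusted p = 0.573) was again in the same direction on both prednisolone arrays, which nearly coincided. The anti-IL6R arrays, at 2.92 and 2.79, also lay above all arrays of slide 1 for Gstm1.

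The other 8 genes of this group had differences between 0.71 and 1.73. Fbln2, which encodes the matrix protein fibulin-2, was measured at -2.72 and -2.81 against -3.93 and -3.85 and differed by 1.12 ± 0.28 (SE). Retn, the gene of the secreted protein resistin, lay at -2.81 and -2.91 against -3.96 and -4.57, a difference of 1.41 ± 0.36 (SE). For the dystrophin gene Dmd the levels were -2.43 and -2.66 against -3.26 and -3.24, a difference of 0.71 ± 0.18 (SE). In each of these the prednisolone arrays lay close together and above both low-difference arrays. The anti-IL6R arrays also lay above all untreated arrays for Fbln2, at -3.10 and -3.14, and for Dmd, at -2.95 and -2.82. For Retn they did not, at -3.66 and -4.61. Cort, the gene of the neuropeptide cortistatin, differed by 1.16 ± 0.28 (SE), and Cxadrl1, Fam229a and Ccdc136 by 0.91, 0.79 and 0.79. Rp1l1, a photoreceptor microtubule gene, lay at -3.45 and -4.88 against -5.95 and -5.84. Its prednisolone arrays were far apart, and without prednisolone 2 the difference was 2.44 with an adjusted p of 0.0442. Adjusted p for these 8 genes ran from 0.635 to 0.727 in the limma fit of all arrays.

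Of the 12 genes named by the same rule that lay lower after prednisolone, Dpep1 had the widest gap. Dpep1, which encodes a dipeptidase of the proximal tubule brush border that also serves as an adhesion receptor for neutrophils, lay at -3.08 and -2.62 on the prednisolone arrays and -0.10 and 0.87 on the low-difference arrays. Both prednisolone arrays were low, by -3.24 ± 0.62 (SE, adjusted p = 0.528). The untreated high-difference arrays were similarly low, at -1.99 and -3.40, while the anti-IL6R arrays were at 0.95 and -0.23. Gzmc, which encodes granzyme C, a protease of cytotoxic lymphocytes, lay at -4.52 and -4.84 against -2.80 and -2.34, a difference of -2.11 ± 0.36 (SE, adjusted p = 0.428). Nefm, the medium neurofilament gene, was at 0.11 and 1.1 against 3.08 and 2.94, and differed by -2.40 ± 0.38 (SE, adjusted p = 0.406). For Nefm the anti-IL6R arrays were also low, at 0.46 and 1.11, so that both groups of slide 2 lay under all 4 arrays of slide 1. For Gzmc they were not, at -2.08 and -3.05, near the low-difference arrays. The untreated high-difference arrays were also low for Gzmc, at -4.97 and -5.25.

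Sectm1a, an immune co-stimulatory ligand gene, lay at -1.79 and -2.77 against -0.41 and 0.80, a difference of -2.47 ± 0.49 (SE, adjusted p = 0.528). Tac3, the gene of neurokinin B, lay at -3.67 and -3.12 against -1.81 and -1.57 and differed by -1.70 ± 0.28 (SE, adjusted p = 0.423). The secreted matrix protein gene Ccdc80 was at 1.21 and 1.47 against 2.33 and 2.76, with a difference of -1.21 ± 0.22 (SE, adjusted p = 0.497). All 3 had anti-IL6R levels near those of the low-difference grafts, for Ccdc80 2.34 and 2.49. The untreated high-difference arrays were low as well. They read 0.80 and 0.78 for Ccdc80, -1.66 and -1.68 for Sectm1a and -2.79 and -2.85 for Tac3. The sulfotransferase gene Sult5a1 differed by -1.69 ± 0.33 (SE), and Fam43a, Akr1c15 and Serpinb8 differed by -1.06, -1.17 and -1.41. Akr1c15 and Serpinb8, which encode an aldo-keto reductase and an intracellular protease inhibitor, were low on the anti-IL6R arrays too. For Akr1c15 these read -3.21 and -2.75 against low-difference levels of -2.49 and -2.17, and for Serpinb8 -3.91 and -3.21 against -2.53 and -2.19. The remaining lower genes of this set, Zbp1 and C4a, are described with their pathways.

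Some genes were not well above background on 1 side, so only a bound can be given. It sets the brighter group's mean against the lowest measurable level of the dimmer arrays. Lower after prednisolone were C7, described with the complement genes (at least 3.72-fold lower), Lancl3 (at least 2.62-fold), Chodl, a lectin-like membrane protein gene (at least 2.55-fold), and Dmrtc1b (at least 2.7-fold). Dmrtc1b rested on low-difference 1, with levels of -2.80 and -5.43. Bounds in the other direction often rested on 1 prednisolone array. The slow skeletal muscle troponin gene Tnnt1 was at least 8.69-fold higher, from -4.67 and -0.71 on the prednisolone arrays, so that prednisolone 2 carried the bound, and without prednisolone 1 its difference was 5.10 with an adjusted p of 0.00376. The phosphodiesterase gene Pde11a was at least 6.79-fold higher, the sodium channel gene Scn2a at least 6.08-fold, Galnt9 at least 4.18-fold and the keratin gene Krt20 at least 3.49-fold. Scn2a read -5.47 and -1.44 on the prednisolone arrays against -7.63 and -6.61 on the low-difference arrays. Both prednisolone arrays lay above these, prednisolone 2 far more so. Pde11a read -3.73 and -2.86 on the prednisolone arrays, high on both. Krt20, a marker of injured tubule cells, was well above background on prednisolone 1 only, at -2.21 and -5.97, and lay at -0.13 and -0.76 on the untreated high-difference arrays. Another background correction (normexp) gave these dim genes smaller differences, such as 1.28 for Pde11a, 1.03 for Tnnt1 and -1.1 for C7, and for Pde11a the difference was 0.12 without the filter on dim probes.

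**Figure D2:**
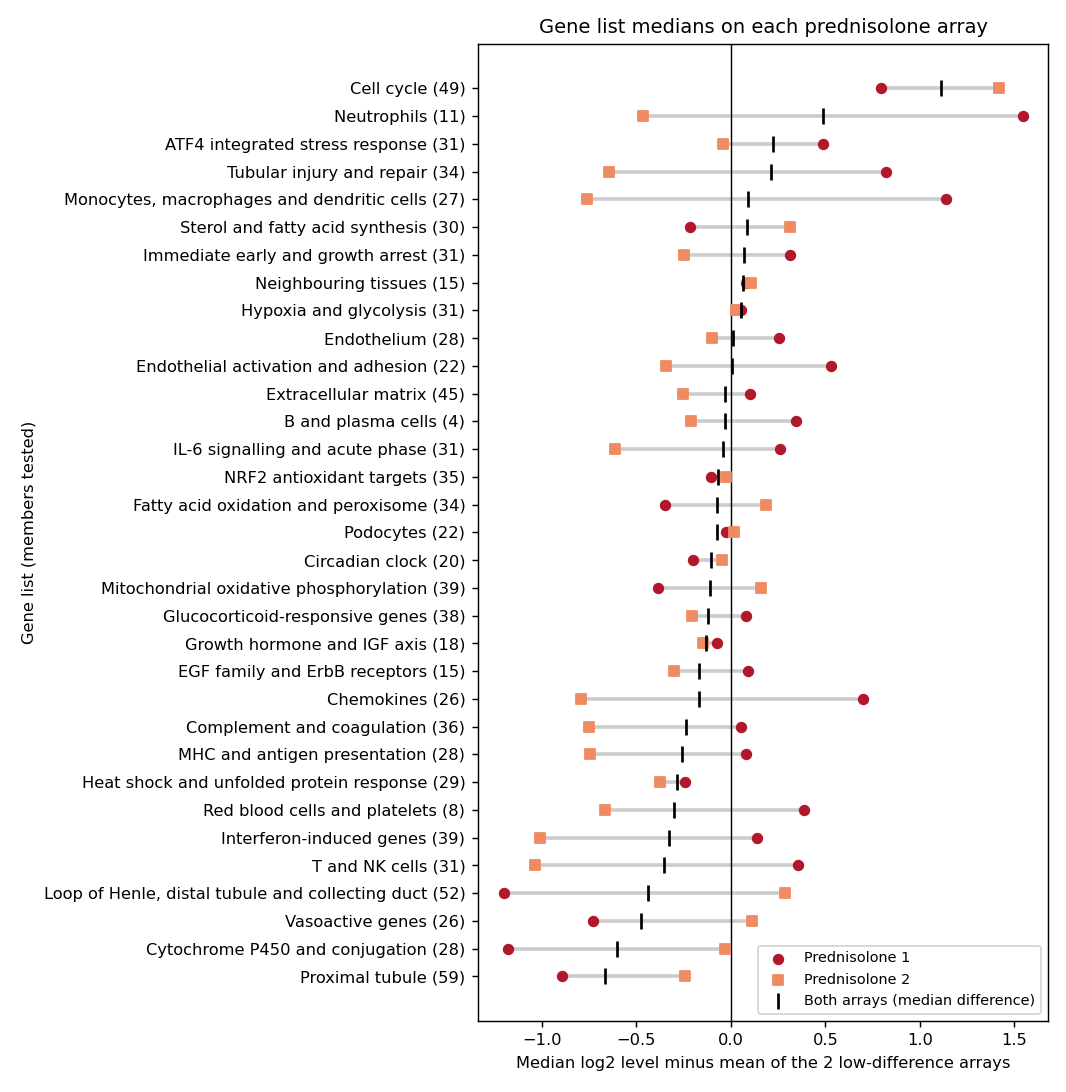
The median log2 level of 33 gene lists on prednisolone 1 and prednisolone 2, each minus the mean of the 2 low-difference arrays, with the median of the 2-array difference as a black tick. Numbers in brackets are list members tested. The 2 prednisolone arrays fall on opposite sides of 0 for most immune lists and the distal nephron, and on the same side for cell cycle, proximal tubule and heat shock genes.

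The 33 gene lists were chosen with earlier results of these data known, and they describe where the prednisolone grafts parted from the low-difference grafts and from each other. Over all genes the median difference was -0.02, with -0.023 for prednisolone 1 and -0.0029 for prednisolone 2, values that the scaling of each array to its own 75th percentile holds near 0. Leukocyte genes lay on opposite sides of the low-difference level on the 2 prednisolone arrays, and so did genes of the distal nephron. Chaperone genes and proximal tubule genes were below it on both, and cell cycle genes were above it on both.

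Of the 33 lists, interferon-induced genes had the largest share at an unadjusted p under 0.05. These genes encode proteins that block viral replication, present antigen or attract T cells, and most are switched on by transcription factors that interferon receptors activate. Of 39 members tested, 10 had an unadjusted p under 0.05 in the lower direction (25.6%, against 3.67% of all genes) and 0 in the higher direction. Both prednisolone arrays lay below both low-difference arrays for 15 members (38.5%, against 16.8% of all genes) and above both for 0. The median difference was -0.33, with 33 members below 0 (84.6%, against 52.5% of all genes). The 2 arrays did not contribute alike. Prednisolone 2 was the lowest of the 4 arrays for 36 of 39 members, against 6210 of all 24463 genes. It had a median of -1.01 relative to the low-difference mean, whereas the median on prednisolone 1 was 0.14. Without prednisolone 2 the list median was therefore above 0. The untreated high-difference arrays had list medians of -0.97 and -0.59 relative to the low-difference mean, so lower levels were not particular to the prednisolone grafts.

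**Figure D3:**
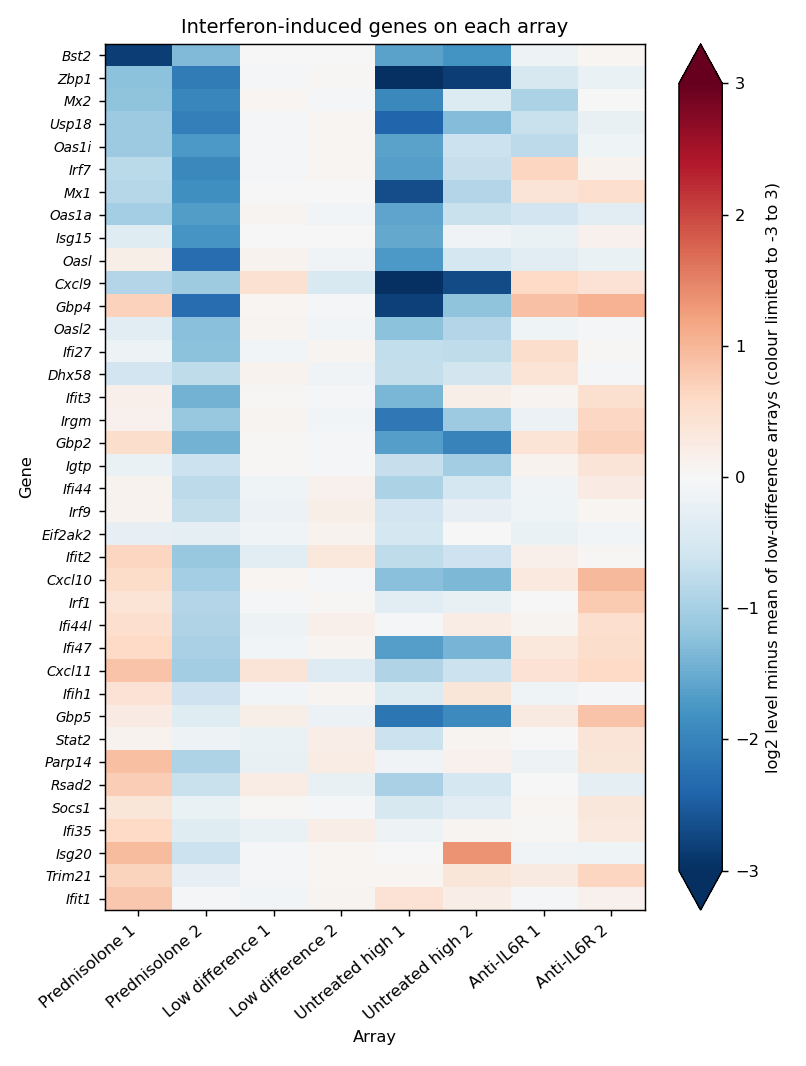
Interferon-induced genes (38 of the 39 tested) by array, coloured by log2 level minus the mean of the low-difference arrays and ordered by the difference between prednisolone and low-difference grafts. Prednisolone 2 is blue for most genes, and prednisolone 1 is blue for the genes at the top, from Bst2 to Oas1a.

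A subset lay low on both prednisolone arrays. Bst2, which encodes tetherin, a membrane protein that holds budding viruses at the cell surface, lay at 0.86 and 2.36 on the prednisolone arrays and 3.66 and 3.71 on the low-difference arrays. Both were low and the difference was -2.07 ± 0.46 (SE, adjusted p = 0.573). Its 2 probes both gave -2.07, and without prednisolone 2 the difference was -2.83 with an adjusted p of 0.0432. Zbp1, a sensor of Z-form nucleic acids that can trigger necroptosis, lay at -2.92 and -3.79 against -1.74 and -1.66, a difference of -1.65 ± 0.33 (SE, adjusted p = 0.528). The untreated high-difference arrays were lower still for Zbp1, at -4.99 and -4.53. Usp18, a brake on interferon receptor signalling, lay at -2.16 and -3.14 against -1.15 and -1.01 and differed by -1.57 ± 0.46 (SE, adjusted p = 0.743).

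The oligoadenylate synthetases, which activate an RNA-degrading enzyme, and the transcription factor gene Irf7 formed part of the same subset. Oas1a lay at 0.93 and 0.27 against 2.02 and 1.88, a difference of -1.35 ± 0.36 (SE, adjusted p = 0.735). Oas1i, a close relative whose probe may share signal with Oas1a, differed by -1.41 ± 0.41 (SE). Irf7, which amplifies type I interferon production, lay at 2.09 and 0.95 against 2.82 and 2.95 and differed by -1.36 ± 0.47 (SE, adjusted p = 0.796). The dynamin-like antiviral gene Mx2 differed by -1.58 ± 0.56 (SE), while Mx1 was not well above background on the prednisolone arrays and lay at -4.87 and -4.87 on the low-difference arrays. For Oas1a, Oas1i, Irf7 and Mx2 prednisolone 2 was the lower array and the groups did not overlap. On the anti-IL6R arrays, which share the slide, Irf7 was at 3.53 and 2.98 and Bst2 at 3.52 and 3.74, near or above the low-difference arrays, and Oas1a at 1.37 and 1.61, between the groups. The untreated high-difference arrays were also low, at 1.23 and 2.20 for Irf7, 2.07 and 1.90 for Bst2 and 0.36 and 1.28 for Oas1a.

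Other members were split or nearer the low-difference level. Ifit1, an RNA-binding antiviral gene, lay at 0.17 and -0.70 on the prednisolone arrays against -0.73 and -0.58, with prednisolone 2 inside the low-difference range. The T cell attractant Cxcl10 was at 2.53 and 0.97 against 2.05 and 1.93, so that prednisolone 1 was above and prednisolone 2 below both low-difference arrays. The related Cxcl9 lay low on both, at -2.68 and -2.86 against -1.33 and -2.27, a difference of -0.97 ± 0.34 (SE, adjusted p = 0.797). In bulk tissue fewer cells of a type and less RNA per cell cannot be told apart. The summed levels of leukocyte markers differed between the same arrays. The summed level of the 31 tested T and NK cell genes of 42 listed was 5.11 and 2.35 times the 75th percentile on the prednisolone arrays and 4.59 and 5.26 on the low-difference arrays, and that of 27 of 37 monocyte, macrophage and dendritic cell genes was 216 and 61.1 against 109 and 141. Of the CD3 genes, which define T cells, Cd3d was well above background on all 4 arrays, at -0.82 and -1.43 on the prednisolone arrays against -0.51 and -0.72. Cd3g was so on all but prednisolone 2, and Cd3e on none of the 4. The part of leukocyte content in the interferon values was not tested.

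Promoters of these genes are shown because the list was defined by a shared response and the shared letters can be read directly. The interferon-stimulated response element (ISRE), searched on both strands as 2 GAAA words with any 2 bases between them, is bound by interferon regulatory factors. It occurred within 250 bases before the gene start in 22 of 31 tested members with an entry in the RefSeq promoter table (71.0%), against 902 of all 27457 promoters (3.29%). The 120-base stretches below are from the strand of the gene in GRCr8, in lower case with each ISRE match in capitals. Where matches overlap they share their middle bases.
Bst2, chr16:18255009-18255128, minus strand: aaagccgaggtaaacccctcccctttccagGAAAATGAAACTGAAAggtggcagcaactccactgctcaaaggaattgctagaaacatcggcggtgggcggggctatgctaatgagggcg
Oas1a, chr12:41330346-41330465, plus strand: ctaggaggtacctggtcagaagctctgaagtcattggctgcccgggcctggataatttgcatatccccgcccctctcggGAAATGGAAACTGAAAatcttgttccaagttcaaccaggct
Irf7, chr1:205800024-205800143, minus strand: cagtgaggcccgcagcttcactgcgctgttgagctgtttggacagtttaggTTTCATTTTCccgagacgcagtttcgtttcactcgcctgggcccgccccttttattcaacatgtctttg
Oasl2, chr12:47383247-47383366, minus strand: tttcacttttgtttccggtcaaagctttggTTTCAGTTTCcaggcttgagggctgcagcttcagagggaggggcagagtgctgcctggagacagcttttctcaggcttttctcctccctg
Bst2 and Oas1a each hold a pair of overlapping matches that read along the gene, while Irf7 and Oasl2 hold 1 match each on the opposite strand. Oasl2, another oligoadenylate synthetase-like gene, lay at 0.78 and -0.12 on the prednisolone arrays against 1.20 and 1.04. The match also occurs before members that did not lie low on both arrays, such as Isg20, Rsad2 and Trim21, and it is a description of these letters, not of binding.

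Heat shock and unfolded protein response genes lay below the low-difference level on both prednisolone arrays. These genes encode chaperones: one set acts in the cytosol and mitochondria under the factor HSF1, the other folds secreted proteins in the endoplasmic reticulum. Both prednisolone arrays lay below both low-difference arrays for 16 of 29 members tested (55.2%, against 16.8% of all genes) and above both for 0. The median difference was -0.29, and it was -0.24 on prednisolone 1 and -0.37 on prednisolone 2. At an unadjusted p under 0.05 were 4 members, all lower (13.8%, against 3.67% of all genes). The steps were small, and the anti-IL6R arrays on the same slide had medians of -0.36 and -0.23 relative to the low-difference mean, against -0.03 and 0.17 on the untreated high-difference arrays of slide 1. For this list slide and treatment cannot be told apart.

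Within the list the small heat shock gene Hspb8 had the largest difference, from -3.48 and -1.55 against -1.33 and -1.37, with prednisolone 1 far the lower. The next steps were those of endoplasmic reticulum chaperones. Calr, which encodes the calcium-binding chaperone calreticulin, lay at 3.22 and 3.40 on the prednisolone arrays and 4.31 and 4.22 on the low-difference arrays, a difference of -0.96 ± 0.21 (SE, adjusted p = 0.578). Hsp90b1, the gene of the chaperone GRP94, lay at 4.29 and 4.26 against 5.42 and 5.24 and differed by -1.05 ± 0.35 (SE, adjusted p = 0.783). Hspa5, which encodes BiP, the sensor-binding chaperone at the head of the response, lay at 6.35 and 5.68 against 6.91 and 6.89, a difference of -0.89 ± 0.58 (SE, adjusted p = 0.83). The arrays of the groups did not overlap for any of the 3. Herpud1, a component of the machinery that removes misfolded proteins, differed by -0.76 ± 0.29 (SE), Creld2 by -0.60 ± 0.26 and the disulfide isomerase gene Pdia4 by -0.52 ± 0.22. The anti-IL6R arrays lay between for Calr, at 3.61 and 3.99, and for Hsp90b1, at 4.60 and 4.98. The inducible cytosolic chaperone gene Hspa1a lay at 4.82 and 2.46 against 3.69 and 3.12, and Hsf1, which encodes the factor behind it, at 1.96 and 1.54 against 1.73 and 1.65. In both, prednisolone 1 was above and prednisolone 2 below both low-difference arrays.

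The endoplasmic reticulum stress element (ERSE), a CCAAT box spaced from a CCACG site and read by NF-Y together with ATF6, was searched on both strands of the same 250 bases as CCAAT, any 9 bases, then CCACG. It occurred before 5 of 24 list members with an entry (20.8%), against 21 of 27457 promoters (0.0765%). The stretches shown are those of the 4 carriers with the largest differences, with the element in capitals.
Hsp90b1, chr7:23012380-23012499, minus strand: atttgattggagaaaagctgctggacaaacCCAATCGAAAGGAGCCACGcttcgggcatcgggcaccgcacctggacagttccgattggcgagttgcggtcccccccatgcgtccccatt
Calr, chr19:40213117-40213236, plus strand: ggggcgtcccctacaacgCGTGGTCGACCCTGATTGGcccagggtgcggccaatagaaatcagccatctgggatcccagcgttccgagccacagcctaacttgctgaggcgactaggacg
Hspa5, chr3:38452896-38453015, plus strand: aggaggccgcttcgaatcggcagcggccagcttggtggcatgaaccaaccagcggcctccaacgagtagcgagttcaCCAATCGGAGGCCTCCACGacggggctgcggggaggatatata
Creld2, chr7:121789209-121789328, plus strand: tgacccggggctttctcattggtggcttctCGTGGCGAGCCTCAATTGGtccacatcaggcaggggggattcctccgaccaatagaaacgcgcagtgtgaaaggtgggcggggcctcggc
Hsp90b1 holds a further match outside the stretch shown. In Hsp90b1 and Hspa5 the element reads along the gene, and in Calr and Creld2 on the opposite strand. Dnajc3 was the other carrier, at 2.60 and 2.24 against 2.68 and 2.55, with a smaller step.

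**Figure D4:**
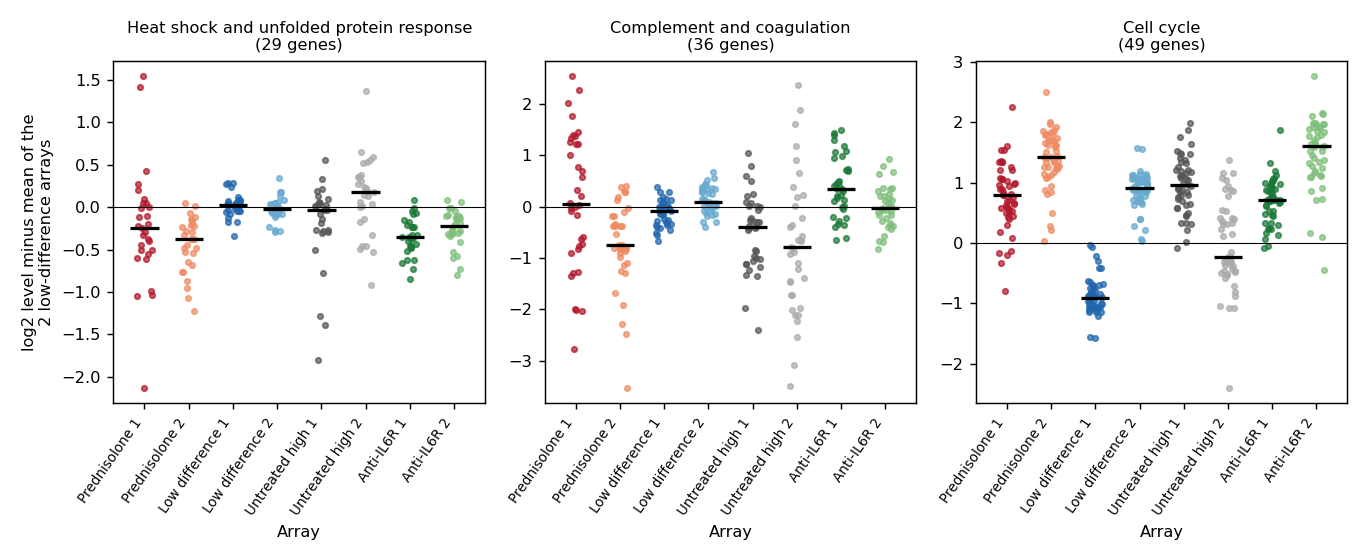
Members of 3 gene lists on each of the 8 arrays, as log2 level minus the mean of the 2 low-difference arrays, with the list median as a black bar. The vertical scale differs between panels. Heat shock and unfolded protein genes sit lower on the 4 arrays of slide 2, and the cell cycle genes of low-difference 1 sit far below those of low-difference 2.

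Some complement genes lay low on both prednisolone arrays, and others were split between them. Complement is a cascade of plasma proteins, some of them also made in the kidney, that marks cells for removal and lyses them. Both prednisolone arrays lay below both low-difference arrays for 9 of 36 complement and coagulation genes tested (25.0%, against 16.8% of all genes) and above both for 3. At an unadjusted p under 0.05 were 6 members, all lower (16.7%, against 3.67%). The list median was -0.24. It was 0.053 on prednisolone 1 and -0.75 on prednisolone 2, so without prednisolone 2 it lay above 0.

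Among the lower genes, C1s, the protease that cleaves C4 and C2, lay at 0.62 and 0.17 on the prednisolone arrays and 2.26 and 3.05 on the low-difference arrays, a difference of -2.26 ± 0.49 (SE, adjusted p = 0.573). Its partner protease C1r lay at 0.56 and 0.10 against 0.97 and 1.82. For both, the prednisolone arrays lay below the low-difference arrays, and the anti-IL6R arrays were high, at 3.84 and 3.01 for C1s. The untreated high-difference arrays were also low for C1s, at 0.67 and -0.44. C4a, which shares most of its sequence with C4b so that the probe may read both, lay at 1.93 and 1.95 against 2.96 and 3.44 and differed by -1.26 ± 0.24 (SE, adjusted p = 0.528). The untreated high-difference arrays, at 2.91 and 2.99, were within the low-difference range for C4a or just under it. Serping1, the gene of the C1 inhibitor, lay at 5.75 and 6.07 against 7.04 and 7.06, a difference of -1.14 ± 0.23 (SE, adjusted p = 0.535), with its 2 probes in the same direction. C7, a subunit of the membrane attack complex, lay at -4.33 and -2.97 on the low-difference arrays. It was not well above background on the prednisolone or the untreated high-difference arrays, while the anti-IL6R arrays read -2.94 and -3.47. C5 was at -2.15 and -3.12 against -1.54 and -1.32. C1qa, made by macrophages, and C3, the hub of the cascade, were split between the prednisolone arrays. C1qa lay at 3.94 and 1.76 against 2.24 and 2.94, high on prednisolone 1 and low on prednisolone 2, and C3 at 1.74 and -1.56 against 0.74 and 0.72.

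Cell cycle genes lay higher in the prednisolone grafts, with a median difference of 1.11 and 46 of 49 tested members above 0 (93.9%, against 47.5% of all genes). Both prednisolone arrays lay above both low-difference arrays for 18 members (36.7%, against 14.8% of all genes) and below both for 0. A single member had an unadjusted p under 0.05 (2.04%, against 2.34% of all genes), and the low-difference arrays were far apart. Low-difference 1 lay below low-difference 2 for 49 of 49 members (against 11227 of all 24463 genes), with medians of -0.91 and 0.91 relative to their mean. The list median was 0.20 without low-difference 1 and 2.05 without low-difference 2. Top2a, the topoisomerase of dividing cells, lay at 3.46 and 4.18 on the prednisolone arrays and 1.29 and 3.56 on the low-difference arrays. Mki67, which encodes the proliferation antigen Ki-67, was at -0.50 and 0.55 against -2.11 and -0.05, and its groups overlapped. Cenpa, the centromeric histone gene, was at -2.44 and -2.04 against -4.69 and -2.89, a difference of 1.54 ± 0.63 (SE, adjusted p = 0.826). Both prednisolone arrays were well above low-difference 1 for these genes, and prednisolone 1 lay below low-difference 2 for Top2a and Mki67. The anti-IL6R arrays had list medians of 0.72 and 1.61 above the low-difference mean.

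By list median, tubule genes lay lower on prednisolone 1 in particular. The proximal tubule reclaims glucose, amino acids, phosphate and filtered protein, and the genes of its transporters and brush border had a median difference of -0.67, with 52 of 59 tested members below 0 (88.1%, against 52.5% of all genes). The median was -0.89 on prednisolone 1 and -0.24 on prednisolone 2, relative to the low-difference mean, and 16 members lay below both low-difference arrays on both (27.1%, against 16.8% of all genes). At an unadjusted p under 0.05 were 2 members, both lower (3.39%, against 3.67% of all genes), a share near the background. For 14 of the 59, prednisolone 1 lay above and prednisolone 2 below both low-difference arrays (against 3508 of all 24463 genes). For 5 the order was the opposite (against 3203). The untreated high-difference arrays had list medians of -0.30 and -1.10 relative to the low-difference mean. Lower levels were therefore not particular to the prednisolone grafts. Cubn, which encodes the protein-uptake receptor cubilin, lay at 4.70 and 4.67 against 5.52 and 5.17, a difference of -0.66 ± 0.23 (SE, adjusted p = 0.796). Both prednisolone arrays were low and nearly coincided. The phosphate transporter gene Slc34a1, at 3.15 and 3.77 against 4.94 and 3.83, was below the low-difference arrays on both, though prednisolone 2 nearly met low-difference 2.

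Distal nephron genes split the prednisolone grafts. The list from the loop of Henle to the collecting duct had a median of -1.20 on prednisolone 1 and 0.29 on prednisolone 2. Of its 52 members, 49 were higher on prednisolone 2, against 13109 of all 24463 genes. Slc12a1, the salt cotransporter blocked by loop diuretics, lay at 3.67 and 6.66 against 6.95 and 5.73. The thiazide-sensitive Slc12a3 was at -0.13 and 1.31 against 1.73 and 0.69. In both, prednisolone 1 lay below the low-difference range and prednisolone 2 within it. The urea transporter gene Slc14a2 was low on both, at -3.59 and -3.42 against -2.90 and -2.44, a difference of -0.83 ± 0.26 (SE), and its second probe gave -4.36. Genes of cytochrome P450 and conjugation enzymes followed the tubule pattern, with medians of -1.18 and -0.03. Of 28 members, 22 were below 0 (78.6%, against 52.5% of all genes). Cyp2c11, a male-specific steroid hydroxylase, was far apart even within groups, at -4.94 and 0.27 against 2.77 and 0.71, a difference of -4.07 ± 1.61 (SE, adjusted p = 0.808). Cyp2j3, an epoxygenase of arachidonic acid, lay at -2.17 and -1.54 against -0.69 and -1.20.

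Vasoactive genes, among them those of the kinin system, had a median difference of -0.47, with 9 of 26 members below both low-difference arrays on both prednisolone arrays (34.6%, against 16.8% of all genes) and 3 at an unadjusted p under 0.05, all lower (11.5%, against 3.67%). The list median was -0.73 on prednisolone 1 and 0.11 on prednisolone 2. Kng1, the gene of the bradykinin precursor kininogen, lay at 0.48 and 0.62 on the prednisolone arrays and 2.88 and 2.63 on the low-difference arrays, and differed by -2.20 ± 0.71 (SE, adjusted p = 0.765). Kng2 has a closely similar sequence, its probe may read the same transcripts, and it differed by -2.10 ± 0.69 (SE). Single arrays of the reference groups were equally low, with untreated high-difference levels of 0.51 and 2.01 and anti-IL6R levels of 2.51 and 0.58 for Kng1. Avpr1a, a vasopressin receptor gene, lay at -1.18 and -1.59 against -0.63 and -0.87, a difference of -0.64 ± 0.21 (SE).

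Glucocorticoid-responsive genes showed little separation at 24 h. Of 38 glucocorticoid-responsive genes tested, 5 lay above both low-difference arrays on both prednisolone arrays (13.2%, against 14.8% of all genes) and 5 below both (13.2%, against 16.8%). The median difference was -0.12. The receptor gene Nr3c1 lay at 1.78 and 1.8 on the prednisolone arrays and 1.74 and 1.68 on the low-difference arrays. Fkbp5, which encodes a co-chaperone that dampens the receptor and is a sensitive target, lay at 3.91 and 3.97 against 3.83 and 3.67, and its probes disagreed in sign. Tsc22d3, the gene of the leucine zipper protein GILZ, was at 3.33 and 4.00 against 4.37 and 3.48, and the clock and steroid target Per1 at -0.42 and -0.79 against -0.49 and -0.54. The groups did not overlap for Nr3c1 and Fkbp5, by a narrow margin, and overlapped for Tsc22d3 and Per1.

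Genes of the list with the smallest p pointed both ways. Glul, glutamine synthetase, is induced by glucocorticoids in several tissues, and here lay at 3.50 and 4.08 against 5.37 and 4.92, a difference of -1.35 ± 0.38 (SE, adjusted p = 0.742). Klf15, a metabolic transcription factor and receptor target, was also lower, at 2.17 and 3.01 against 4.3 and 3.36, by -1.24 ± 0.39 (SE, adjusted p = 0.76). Cdkn1a, the cell cycle inhibitor p21, was higher, at 1.59 and 0.70 against -0.48 and 0.33, a difference of 1.22 ± 0.38 (SE, adjusted p = 0.749). In each of the 3 both prednisolone arrays lay on the same side of both low-difference arrays. The untreated high-difference arrays, from rats given no drug, lay on that side too. They read 3.75 and 4.74 for Glul, 2.87 and 3.04 for Klf15 and 1.22 and 1.43 for Cdkn1a. A palindromic glucocorticoid response element, searched as GNACA, any 3 bases, then TGTNC, was found before 0 of 29 members in the same 250 bases and before 100 of all promoters (0.364%), so that these letters are not in the windows of the list.

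Interleukin-6 signals through its receptor, Il6r, and the shared subunit gp130, encoded by Il6st, to the transcription factor STAT3. Il6st lay at -0.02 and -0.21 on the prednisolone arrays and 0.47 and 0.58 on the low-difference arrays, a difference of -0.64 ± 0.21 (SE, adjusted p = 0.782), and Lifr, the partner receptor for leukaemia inhibitory factor, at -2.80 and -2.56 against -2.10 and -2.15, a difference of -0.55 ± 0.18 (SE). Both prednisolone arrays were the low ones for these receptor genes. Il6r was at -0.50 and -1.81 against -1.17 and -1.22, and the feedback inhibitor Socs3 at -2.77 and -4.05 against -3.59 and -2.79, with overlapping groups. Stat3 lay at 3.81 and 3.51 against 3.51 and 3.61, also overlapping. Over the 31 tested members of the IL-6 and acute phase list the median difference was -0.04, with 0.26 on prednisolone 1 and -0.61 on prednisolone 2.

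Leukocyte genes separated the prednisolone grafts from each other more than from the low-difference grafts. T and NK cell genes had a median of 0.36 on prednisolone 1 and -1.03 on prednisolone 2, relative to the low-difference mean. Prednisolone 2 was the lowest of the 4 arrays for 28 of 31 members, against 6210 of all 24463 genes. The T cell receptor component Cd3d lay at -0.82 and -1.43 against -0.51 and -0.72. Lat, an adaptor of T cell receptor signalling, was at -2.74 and -3.87 against -2.29 and -2.39, a difference of -0.96 ± 0.37 (SE), and the Th1 factor gene Tbx21 was not well above background on either prednisolone array. Monocyte, macrophage and dendritic cell genes had medians of 1.14 and -0.76. The macrophage scavenger receptor gene Mrc1 lay at 2.38 and -0.47 against -1.09 and -0.33, and Cd68 at 2.86 and 0.57 against 0.96 and 1.69. Prednisolone 1 lay above both low-difference arrays for these genes, while prednisolone 2 lay below both for Cd68 and between them for Mrc1. Neutrophil genes had medians of 1.54 and -0.47. The calprotectin subunit gene S100a9 was at 0.33 and -3.21 against -3.35 and -3.01, high on prednisolone 1 only. On the untreated high-difference arrays the medians were -1.44 and -1.50 for T and NK cell genes. They were -1.11 and -1.81 for monocyte, macrophage and dendritic cell genes and 0.12 and -0.50 for neutrophil genes.

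Genes of antigen presentation and chemokines followed the same split. The MHC list had a median of 0.08 on prednisolone 1 and -0.75 on prednisolone 2, and 9 of 28 members lay below both low-difference arrays on both (32.1%, against 16.8% of all genes). The class II chaperone gene Cd74 lay at 5.32 and 3.69 against 5.28 and 5.12 and the class II gene RT1-Da at 3.50 and 2.32 against 3.73 and 3.51. Probes of such polymorphic genes can bind donor and recipient alleles unequally. Chemokine genes had medians of 0.70 and -0.79. The untreated high-difference arrays had medians of -0.59 and -0.27 for the MHC list and -0.62 and -1.38 for chemokines. Ccl19, which draws T cells and dendritic cells through CCR7, was low on both prednisolone arrays, at 0.86 and 2.48 against 4.68 and 4.21, a difference of -2.78 ± 0.86 (SE, adjusted p = 0.753). It was also low on the untreated high-difference arrays, at 1.91 and 0.63, while the anti-IL6R arrays read 5.65 and 3.49. Ccl5, a T cell attractant, was at -0.16 and -2.41 against -1.25 and -0.98, above on prednisolone 1 and below on prednisolone 2. Glycam1, a ligand of L-selectin, lay at -1.77 and -0.60 against 0.34 and 0.49 and differed by -1.60 ± 0.47 (SE, adjusted p = 0.743).

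Injury genes of the tubule had a median of 0.82 on prednisolone 1 and -0.65 on prednisolone 2. Havcr1, which encodes KIM-1, the standard marker of proximal tubule injury, lay at 6.95 and 2.01 on the prednisolone arrays and 3.79 and 5.24 on the low-difference arrays. It was outside the fit because its spot was an outlier on an untreated high-difference array. Prednisolone 1 was above and prednisolone 2 below both low-difference arrays. Lcn2, the gene of the injury marker NGAL, lay at -1.74 and -4.03 against -3.92 and -2.82, in the same order. Osteopontin, Spp1, was at 8.58 and 7.69 against 8.73 and 8.86, with saturated spots on 3 of the 8 arrays. Fst, the gene of the activin antagonist follistatin, was low on both prednisolone arrays, at -0.36 and -0.79 against 0.95 and 0.72, a difference of -1.41 ± 0.29 (SE, adjusted p = 0.54), and the epithelial keratin gene Krt19 was high on both, at 2.19 and 2.17 against 1.47 and 1.23, by 0.83 ± 0.29 (SE, adjusted p = 0.796). Fst levels were 1.78 and 1.82 on the untreated high-difference arrays.

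Stress and growth programmes differed little as lists. The ATF4 integrated stress response had 24 of 31 members above 0 (77.4%, against 47.5% of all genes). Its median was 0.22 (0.49 on prednisolone 1 and -0.04 on prednisolone 2), with 0 members at an unadjusted p under 0.05 by limma in either direction. Its member Trib3, a pseudokinase gene, lay at 2.45 and 1.61 against 0.97 and 0.90, a difference of 1.1 ± 0.47 (SE, adjusted p = 0.826). Among immediate early genes, Fos, a subunit of AP-1, was low on both prednisolone arrays, at -0.43 and -1.21 against 1.21 and 0.64, by -1.75 ± 0.58 (SE, adjusted p = 0.782), and the small Maf gene Maff lay at -4.68 and -4.93 against -4.08 and -3.62, a difference of -0.96 ± 0.27 (SE). NRF2 antioxidant targets, hypoxia genes and podocyte genes had medians of -0.07, 0.05 and -0.07, and the sign of the NRF2 median turned under quantile normalization and that of the hypoxia median under normexp.

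Stromal and vascular genes held a few that lay low on both prednisolone arrays. Pdgfrb, the receptor of pericytes and mesangial cells, was at 1.65 and 2.03 against 2.93 and 3.31, a difference of -1.28 ± 0.30 (SE, adjusted p = 0.611). For Pdgfrb the untreated high-difference arrays were also low, at 2.32 and 1.86, and the anti-IL6R arrays read 3.60 and 3.05. The matrix proteoglycan gene Bgn (biglycan) lay at 6.76 and 6.56 against 7.12 and 7.75 and differed by -0.77 ± 0.25 (SE), and the protease inhibitor gene Timp3 at 0.36 and 0.37 against 1.09 and 1.0, by -0.67 ± 0.23 (SE). Across the 45 matrix genes 8 lay below both low-difference arrays on both (17.8%, against 16.8% of all genes), and the fibrillar collagen gene Col1a1 was at 5.23 and 5.62 against 5.53 and 5.95, with overlapping groups. Among endothelial genes, Vwf, which encodes von Willebrand factor, lay at 0.28 and 0.09 against 1.61 and 1.40, a difference of -1.32 ± 0.49 (SE, adjusted p = 0.8), while the apelin receptor gene Aplnr was higher, at -3.28 and -3.24 against -3.82 and -3.88, by 0.59 ± 0.20 (SE). The anti-IL6R arrays were shifted in the same direction for both, to 0.16 and 0.80 for Vwf and -2.93 and -3.27 for Aplnr. The untreated high-difference arrays of slide 1 were also low for Vwf, at 0.63 and -0.86. For Aplnr they were not raised, at -4.04 and -4.28.

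Clock and hormone genes supplied single genes with separated groups. Bmal1, the core clock activator, was higher in the prednisolone grafts, at -0.75 and -1.35 against -2.59 and -2.17, a difference of 1.33 ± 0.48 (SE, adjusted p = 0.8). Bhlhe41, a repressor of the clock, lay lower, at 1.33 and 1.08 against 1.90 and 1.87, by -0.68 ± 0.26 (SE). Anti-IL6R levels of Bmal1 were -1.29 and -0.95 and those of Bhlhe41 1.24 and 0.97, near the prednisolone arrays. The untreated high-difference arrays of slide 1 were shifted the same way. They read -0.40 and -1.80 for Bmal1 and 0.58 and 1.24 for Bhlhe41. The growth hormone receptor gene Ghr was at 1.67 and 2.06 against 2.48 and 2.27, a difference of -0.51 ± 0.20 (SE), with its 3 probes in the same direction.

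**Figure D5:**
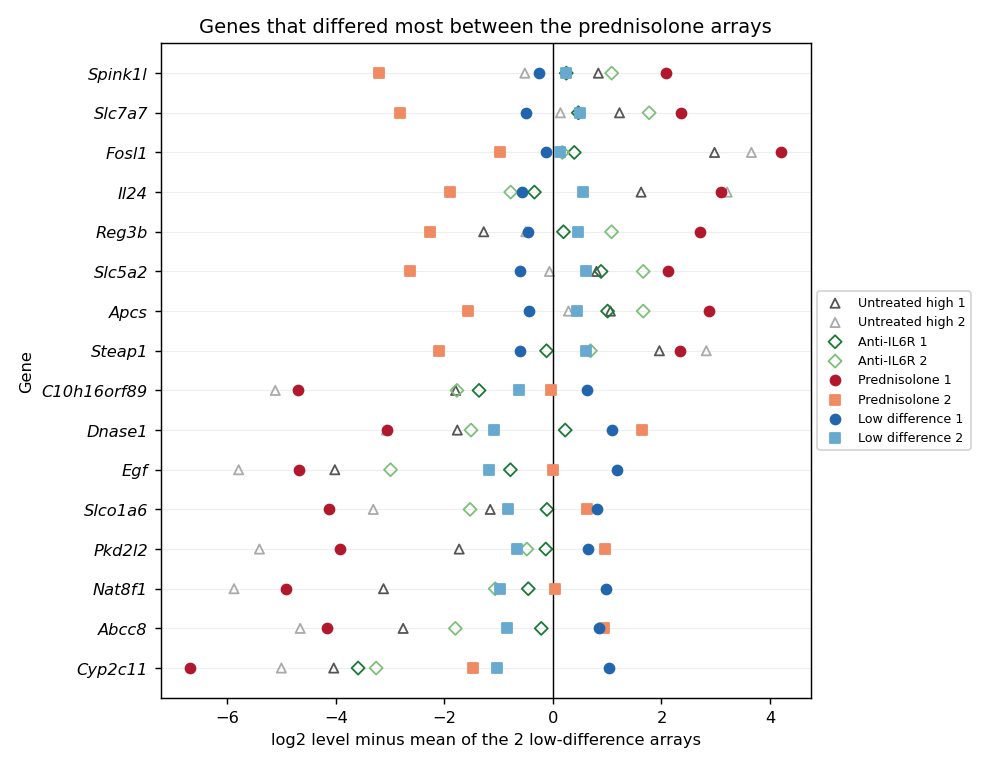
The 8 genes each way that differed most between the 2 prednisolone arrays among genes well above background on both, as log2 level minus the mean of the 2 low-difference arrays, with the reference arrays as open symbols. The anti-IL6R arrays lie between the prednisolone arrays for all 16 genes, and both low-difference arrays do for 11 of them.

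Among genes well above background on both prednisolone arrays, those that differed most between them describe how far apart these grafts were. They were chosen for that difference and carry no test. Higher on prednisolone 1 were the AP-1 subunit gene Fosl1, at 0.49 and -4.69 on the prednisolone arrays against -3.85 and -3.59 on the low-difference arrays, the cytokine gene Il24, at 2.75 and -2.25 against -0.91 and 0.22, and the regenerating protein gene Reg3b, at 0.27 and -4.69 against -2.89 and -1.98. Spink1l, Slc7a7, Apcs and Steap1 had the same order. Slc5a2, the sodium-glucose cotransporter SGLT2 of the early proximal tubule, also lay higher on prednisolone 1, at 7.22 and 2.46 against 4.48 and 5.70. Higher on prednisolone 2 were Egf, the growth factor of the distal tubule, at 1.27 and 5.95 against 7.12 and 4.77, the nuclease gene Dnase1, at 1.73 and 6.41 against 5.86 and 3.70, and the organic anion transporter gene Slco1a6, at 0.35 and 5.10 against 5.30 and 3.66. Abcc8, Nat8f1, Pkd2l2 and C10h16orf89 lay below both low-difference arrays on prednisolone 1 and within or above them on prednisolone 2. For Egf the untreated high-difference arrays, at 1.93 and 0.15, were as low as prednisolone 1.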

How the data were processed

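Each of the 8 samples is 1 array, and the series describes the replicates as biological. Per the label protocols, 1 µg of total RNA was amplified and labelled with Cy3. Per the file headers, the spot intensity values were deposited after Agilent Feature Extraction 9.5.1.1, which subtracted background and corrected trends within each array, and the authors' separate table holds processed intensity values. How that table was processed, the genome build and the probe alignment are not given in the sources used here.

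The levels used here are log2 of the scanner's processed signal for gene spots, minus each array's 75th percentile. Outlier spots were left out, spots of a probe were averaged, and 765 of 41012 probes without a value on every array were dropped. A probe was kept where both arrays of any 1 group read it well above background (28686 probes), each gene was represented by its brightest probe, and 24463 genes were tested, 11770 of them with a RefSeq symbol. Differences came from limma 3.58.1 in R 4.3.3 with all 8 arrays and 4 group means in 1 fit (4 residual degrees of freedom), with Benjamini-Hochberg adjustment over all genes and a threshold of 0.05. The fit was tested on simulated data. Each SE is the moderated one. Where 1 group was not well above background, the bound is the brighter group's mean against the dimmer arrays' lowest measurable level or the probe's own level, whichever was higher. Promoter sequences are from RefSeq, GRCr8, with 250 bases searched and 120 printed.

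The groups compared and the 33 gene lists were chosen with earlier results of these data known, and lists are described by counts and medians with no test. Named genes were the 12 each way with the smallest p among those well above background on all 4 arrays without overlap, the 5 each way with the largest bounds, the first 3 members of each list and the 4 with the smallest p, 26 followed genes, and the 8 each way with the largest difference between the prednisolone arrays among genes well above background on both. Not all are printed, and a few are not reported here. Alternatives were normexp with an offset of 50, quantile and median scaling, the authors' table, 2 other filters on dim probes, the mean of a gene's probes, a variance trend, only the 4 arrays compared, the replicate number as a block, and each array left out in turn.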

Additional observations from a re-analysis of the deposited data

Results flagged for a closer look

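Il6, the gene of interleukin-6, was outside the fit because its probe was not well above background on both arrays of any group. It was well above background on prednisolone 1 alone, at a log2 level of -5.56, and read -7.24 on prednisolone 2 and -8.24 and -7.99 on the low-difference arrays, where it was not.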

How the results depend on the processing

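Limma called 0 genes with all arrays and in each of the 10 processing alternatives, and between 0 and 151 with 1 array left out (151 without prednisolone 1, 32 without prednisolone 2). The count at an unadjusted p under 0.05 was 1471, but 905 with the normexp correction and 895 in a fit of only the 4 arrays, and it ran from 843 to 5091 with 1 array left out. The split was 680 higher and 823 lower with median scaling, 681 and 823 in the authors' deposited table, 1110 and 980 without the filter on dim probes, and 486 and 527 where all 4 arrays had to be well above background. All 84 gene differences checked kept their direction in each processing alternative that tested them. Of these, 13 dim genes were not tested where all 4 arrays had to be well above background. The 84 also kept their direction with each array left out, which was fixed in advance for genes whose groups did not overlap. Most of the 84 were such genes. Genes split between the prednisolone arrays, such as Cd68, Cxcl10 and S100a9, were not among them. Of the 33 list medians, 25 kept their direction in every processing alternative and 8 with each array left out. With 1 array left out the interferon median ran from -1.01 to 0.14 (above 0 without prednisolone 2), complement from -0.75 to 0.053 (above 0 without prednisolone 2), proximal tubule from -0.89 to -0.24 (the latter without prednisolone 1), cell cycle from 0.20 to 2.05 (without low-difference 1 and 2), and heat shock from -0.37 to -0.24. The causes were not tested. Slide could not be fitted as a block beside the groups. Replicate numbers are only shared: same-numbered deviations correlated at -0.351 between these 2 groups, and with the replicate block limma called 0 genes and 1257 had an unadjusted p under 0.05. The signal over background limits dim genes, whose differences were smaller with normexp.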

Other observations

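Mitochondrial and lipid genes had small differences with a regular order between the prednisolone arrays. Of 39 genes for subunits of the respiratory chain and ATP synthase, prednisolone 2 lay above prednisolone 1 for 38, against 13109 of all 24463 genes. The list medians relative to the low-difference mean were -0.39 on prednisolone 1 and 0.16 on prednisolone 2. Fatty acid oxidation and peroxisome genes had medians of -0.35 and 0.19 over 34 members, and sterol and fatty acid synthesis genes -0.22 and 0.31 over 30. In the sterol list Stard4, which encodes a cytosolic cholesterol carrier, lay at -1.18 and -1.70 on the prednisolone arrays and -2.78 and -1.93 on the low-difference arrays, a difference of 0.92 ± 0.36 (SE, adjusted p = 0.808).

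Markers of blood cells and of tissues next to the kidney were also measured. The summed level of 8 of 15 red cell and platelet genes was 321.5 and 71.4 times the 75th percentile on the prednisolone arrays and 298 and 204 on the low-difference arrays. Only 4 of 15 B and plasma cell genes were tested, with a median difference of -0.03. It was 0.469 without the filter on dim probes and ran from -0.33 to 0.34 with 1 array left out (-0.33 without low-difference 2, 0.27 without low-difference 1 and 0.34 without prednisolone 2), so its direction is not settled. For 15 of 29 genes of neighbouring tissues such as fat, muscle and adrenal gland, the summed level was 6.90 and 5.72 on the prednisolone arrays and 5.27 and 6.10 on the low-difference arrays.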
